A study of Mus musculus with 24 samples.

Results

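The 27 genes described here make cholesterol in mouse cells or sense and move it: 8 enzymes of the mevalonate and isoprenoid steps, 3 enzymes from squalene to lanosterol, 9 enzymes that work on the sterol ring, and 7 genes for sterol sensing and transport. They were taken by gene name from a list, and each was found among the 54532 genes of the deposited table. The list does not hold every gene of the pathway. Levels are in FPKM, fragments per kilobase of gene length, scaled to the depth of the library. Division by length lets genes be set side by side only roughly. The deposited table gives a single length per gene, such as 10787 bases for Lss, which need not be that of the transcript present.

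Cells build cholesterol from acetyl-CoA through mevalonate, squalene and lanosterol, and the mevalonate steps also feed ubiquinone, dolichol and the lipid anchors of proteins. The pathway is switched by its own product. When the endoplasmic reticulum holds enough sterol, INSIG proteins retain the sensor SCAP and with it the transcription factor SREBP2, the product of Srebf2. When sterol is short, SCAP carries SREBP2 to the Golgi, where it is cut, and the freed factor turns on the enzymes, usually with NF-Y and Sp1 bound nearby, and also Insig1. Adipocytes hold a large pool of free cholesterol at their lipid droplet, while macrophages store it as ester made by SOAT1.

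RNA sequencing covered inguinal fat (iWAT), a depot under the skin, and epididymal fat (eWAT), a depot in the abdomen, from C57BL6 mice. They carried either AAV-irisin, an adeno-associated virus that encodes the hormone irisin, which is cut from the product of Fndc5, or the control virus AAV-GFP. For 18 weeks they ate a high-fat diet (HFD) or normal chow. In each depot the groups were irisin HFD, GFP HFD, irisin chow and GFP chow, with 3 libraries each, 24 in all. Every mouse had therefore received a virus. The labels give neither the tissue the virus entered, its promoter or dose, nor the age of the mice, and it is not stated that replicate libraries are different animals. P-values therefore reflect how far these libraries scatter, which may be technical.

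Reads in genes, as read back from the table, numbered between 14.1 and 19.7 M a library, and 1 FPKM in a gene of 2000 bases stood for 26.7 to 39.3 reads. The adipocyte gene Adipoq was at 615 FPKM or more in each library, Tbx15, a transcription factor of subcutaneous fat, was at 2.88 to 14.2 FPKM in iWAT and at most 0.0896 in eWAT, and Wt1, a factor of visceral mesothelium, at most 0.0204 in iWAT and 1.19 to 11.9 in eWAT. Fndc5 was at 0.392, 3.17 and 3.91 FPKM in iWAT irisin HFD libraries, against 0.258, 0.163 and 0.193 in GFP HFD libraries. It overlapped between irisin and GFP libraries in iWAT on chow and in eWAT on HFD. In eWAT on chow the groups were apart by a narrow gap, at 0.456, 0.801 and 1.40 FPKM with irisin, against 0.454, 0.131 and 0.390 with GFP. Since the labels do not say that the virus reached the fat, Fndc5 does not check them. 4 libraries held many transcripts of other tissues. They were iWAT GFP HFD 1 (B cell gene Cd79b 122 FPKM) and eWAT GFP chow 1 (37.0), iWAT irisin chow 3 (muscle gene Ckm 279) and eWAT GFP HFD 3 (epididymal gene Adam7 291). eWAT irisin HFD 2 held far less of the macrophage gene Adgre1, 32.3 FPKM, than the other eWAT HFD libraries (115 to 179).

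The promoters were searched for the letters that known regulators of the pathway bind. RefSeq sequences (GRCm38.p6, from 250 bases before to 50 bases after the start of transcription) were matched for 23 of the 27 genes. They were searched on both strands for the sterol regulatory element TCACNCCAC, the NF-Y box CCAAT, the Sp1 box GGGCGG and the E-box CACGTG, and no motif holds the letters of another. The NF-Y box stood in a promoter of 21 of the 23 genes (91.3%), against 42.3% of 17492 protein-coding genes and 37.4% of all 32851 promoters. The Sp1 box stood in 21 of 23 (91.3%), against 49.2% of coding genes, and the E-box in 5 of 23 (Hsd17b7, Sc5d, Dhcr7, Insig1 and Scap), against 8.91%. The strict sterol element was matched in Hmgcs1 alone, as TCACCCCAC at position -137 from the start, against 1.41% of coding genes. A match is a string of letters and not a measured site, and a gene without one may hold a variant of the motif or a site outside the window.

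5 promoters are shown as examples from the genes called in at least 2 diet comparisons: Hmgcs1 (chr13:119690101-119690400, plus strand), Hsd17b7 (chr1:169969156-169969455, minus strand), Insig1 (chr5:28071162-28071461, plus strand), Msmo1 (chr8:64733529-64733828, minus strand) and Soat1 (chr1:156474279-156474578, minus strand). The other such genes, Lss, Sc5d, Dhcr7 and Stard4, are not shown, and no promoter was matched for Stard4. Capitals mark the sterol regulatory element and each NF-Y box, written CCAAT or, on the other strand, ATTGG.
Hmgcs1: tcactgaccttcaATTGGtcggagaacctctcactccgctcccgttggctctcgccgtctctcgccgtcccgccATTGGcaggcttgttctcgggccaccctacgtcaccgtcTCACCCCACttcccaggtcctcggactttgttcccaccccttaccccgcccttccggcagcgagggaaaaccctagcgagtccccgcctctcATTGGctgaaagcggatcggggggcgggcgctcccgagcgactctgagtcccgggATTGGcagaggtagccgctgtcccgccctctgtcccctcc
Hsd17b7: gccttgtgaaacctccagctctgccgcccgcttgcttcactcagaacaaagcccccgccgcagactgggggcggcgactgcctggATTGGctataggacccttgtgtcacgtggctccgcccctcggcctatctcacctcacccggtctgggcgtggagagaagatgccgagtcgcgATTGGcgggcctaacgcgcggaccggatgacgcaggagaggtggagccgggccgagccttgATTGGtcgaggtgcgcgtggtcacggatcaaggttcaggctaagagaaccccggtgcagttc
Insig1: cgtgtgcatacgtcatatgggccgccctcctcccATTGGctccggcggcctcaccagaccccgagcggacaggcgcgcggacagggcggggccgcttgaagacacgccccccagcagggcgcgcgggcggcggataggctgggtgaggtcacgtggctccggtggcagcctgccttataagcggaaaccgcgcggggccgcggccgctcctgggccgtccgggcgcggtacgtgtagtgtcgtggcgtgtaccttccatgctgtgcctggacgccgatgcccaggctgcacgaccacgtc
Msmo1: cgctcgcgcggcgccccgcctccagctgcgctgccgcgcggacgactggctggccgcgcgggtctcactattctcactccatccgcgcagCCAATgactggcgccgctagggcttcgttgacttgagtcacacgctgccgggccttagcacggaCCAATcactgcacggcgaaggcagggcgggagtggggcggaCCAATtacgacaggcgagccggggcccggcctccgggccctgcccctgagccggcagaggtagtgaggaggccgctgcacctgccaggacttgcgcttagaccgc
Soat1: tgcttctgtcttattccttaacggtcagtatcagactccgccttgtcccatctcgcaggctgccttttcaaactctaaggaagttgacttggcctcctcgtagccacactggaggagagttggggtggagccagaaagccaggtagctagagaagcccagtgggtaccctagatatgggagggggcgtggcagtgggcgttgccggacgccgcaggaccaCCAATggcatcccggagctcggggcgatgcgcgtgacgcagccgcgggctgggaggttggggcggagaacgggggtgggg
Hmgcs1 has 4 NF-Y boxes, Hsd17b7 and Msmo1 have 3 each, and Insig1 and Soat1 have 1 each.

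Of the 27 genes, 26 passed the filter on low values (at least 0.5 FPKM in at least 3 libraries of a fit) and were tested. The exception is Fdps, farnesyl diphosphate synthase, listed at 0.0443 to 0.541 FPKM, with 3 to 42 reads a library. Its gene model shares 7512 bases with Gm43738 on the same strand and it has a named pseudogene, so that its count is uncertain and is not read as low expression. Another 13 genes overlap an annotated gene. Fdft1 shares 774 bases with Ctsb on the opposite strand, and Tm7sf2 overlaps Vps51 on the same strand. The sources used here do not say whether counting used strand, and reads of such pairs may be split or mixed.

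The level of the 26 tested genes differed widely. Insig1 had the highest median over the 24 libraries, 71.6 FPKM, followed by Hmgcs1 at 59.5, Sc5d at 32.0, Acat2 at 31.8 and Pmvk at 31.7. Stard4, at 1.94, and Tm7sf2, at 2.05, had the lowest. The ratio of the highest to the lowest library was 48.2 for Soat1, 12.8 for Insig1 and 9.40 for Hmgcs1, against 1.48 for Scap and 1.51 for Ggps1.

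**Figure D1:**
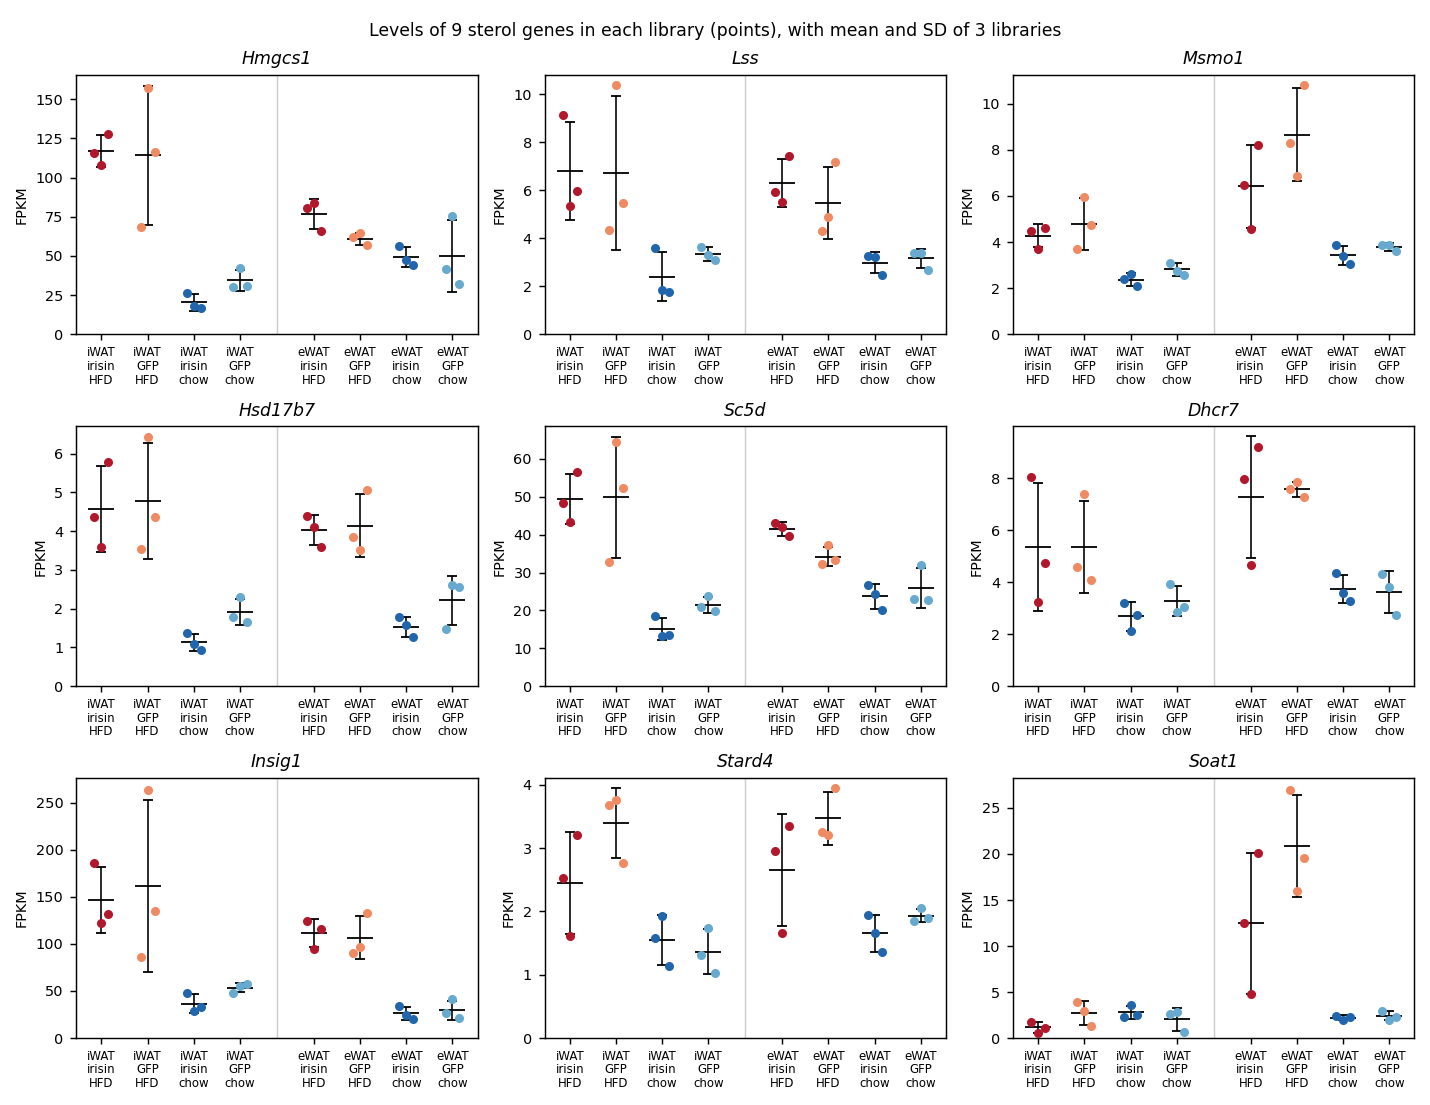
Level in FPKM (vertical axes, each from 0) of the 9 genes called in at least 2 diet comparisons, in each library (points) of the 8 groups, with the mean and SD of 3 libraries as bars. Insig1, Hsd17b7, Lss, Msmo1 and Sc5d are higher in every HFD library than in any chow library of the same depot. Soat1 reaches 26.9 FPKM in eWAT HFD libraries.

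Most calls in these genes came with diet. In iWAT, 6 of the 26 tested genes were higher on HFD than on chow in irisin mice (Hmgcs1, Insig1, Sc5d, Hsd17b7, Lss and Msmo1) and 4 in GFP mice (Hmgcs1, Sc5d, Hsd17b7 and Stard4), and none was lower. In eWAT, 8 were higher in irisin mice (Insig1, Soat1, Hsd17b7, Mvd, Lss, Dhcr7, Sc5d and Msmo1) and 8 in GFP mice (Soat1, Insig1, Msmo1, Dhcr7, Hsd17b7, Stard4, Lss and Cyp51), with Acat2 lower in GFP mice. A gene was called where limma's Benjamini-Hochberg adjusted p over all genes tested was under 0.05, and each effect is a log2 fold change with its SE on the log2(FPKM + 0.5) scale, where changes of low genes are understated. Of all genes tested, 4.82% were called higher in iWAT of irisin mice, 1.44% in iWAT of GFP mice, 9.47% in eWAT of irisin mice and 14.7% in eWAT of GFP mice. The shares called lower were 4.19% and 0.924% in iWAT of irisin and GFP mice and 7.93% and 11.8% in eWAT. Across the 26 genes the median diet effect was 0.51 in iWAT of irisin mice, 0.48 in iWAT of GFP mice, 0.39 in eWAT of irisin mice and 0.48 in eWAT of GFP mice, where the median over all genes tested lay between -0.015 and 0.0043. All 3 HFD libraries lay above all 3 chow libraries for 12 of the 26 in iWAT of irisin mice (17.8% of all genes tested), 10 in iWAT of GFP mice (12%), 12 in eWAT of irisin mice (18.9%) and 10 in eWAT of GFP mice (22.9%). They lay below for 2 (19.2%), 0 (11.3%), 1 (17.6%) and 2 (21.1%) in the same order. In all 4 the set's share apart upward was larger than that of all genes and its share apart downward smaller, a description with no test. Hsd17b7 was called in all 4 diet comparisons, with calls in GFP mice that were lost under some of the alternatives given below, and Lss, Msmo1, Sc5d and Insig1 in 3. 12 of the genes were called in at least 1, and 15, Fdps included, in none.

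Hmgcs1 encodes cytosolic HMG-CoA synthase, which makes the substrate of the pathway's rate-limiting step (ENSMUSG00000093930, chromosome 13, positions 119690379 to 119708260, plus strand). In iWAT it stood at 116, 108 and 128 FPKM in irisin HFD libraries, against 26.5, 18.0 and 16.8 in irisin chow libraries. GFP mice had 68.6, 157 and 116 FPKM on HFD, against 29.9, 42.4 and 30.9 on chow. Each iWAT HFD library lay above each iWAT chow library, with a log2 fold change of 2.51 ± 0.28 (adjusted p = 0.00224) in irisin mice and 1.65 ± 0.28 (adjusted p = 0.0176) in GFP mice. In eWAT Hmgcs1 stood at 80.6, 83.7 and 65.8 FPKM in irisin HFD libraries, against 56.3, 47.5 and 44.1 in irisin chow libraries. In eWAT of GFP mice Hmgcs1 was at 62.1, 64.4 and 56.8 FPKM on HFD, against 41.5, 75.7 and 32.2 on chow, and the groups overlapped. Neither eWAT effect was called: 0.63 ± 0.25 (adjusted p = 0.106) in irisin mice and 0.38 ± 0.25 (adjusted p = 0.290) in GFP mice. The GFP call in iWAT was lost without GFP HFD 2 (1.38) or GFP chow 1 (1.56), and GFP HFD 1, the library rich in B cell transcripts, was the lowest HFD library.

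The other early enzymes gave few diet calls. Mvd, mevalonate diphosphate decarboxylase, was at 13.0, 10.9 and 14.1 FPKM in eWAT irisin HFD libraries, against 6.75, 6.71 and 4.47 in irisin chow libraries, a log2 fold change of 1.04 ± 0.25 (adjusted p = 0.0193) that was not called without irisin HFD 1 (1.01), irisin HFD 3 (0.95) or irisin chow 3 (0.86). Acat2, the cytosolic thiolase of the first step, was at 13.7, 19.7 and 23.5 FPKM in eWAT GFP HFD libraries, against 36.8, 34.0 and 28.2 in GFP chow libraries. It was the 1 gene of the 26 called lower on HFD, at -0.81 ± 0.21 (adjusted p = 0.0166), and the call was lost without GFP HFD 1 (-0.60). Mvk and Pmvk, the kinases after mevalonate, Idi1, the isomerase of isopentenyl diphosphate, and Ggps1, which branches to geranylgeranyl diphosphate, were called in no diet comparison. Their levels over the 24 libraries were 9.75 to 21.4, 19.3 to 48.5, 2.79 to 8.22 and 6.33 to 9.57 FPKM in that order.

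Of the enzymes from squalene to lanosterol, Lss, lanosterol synthase, was called in 3 of the 4 diet comparisons (ENSMUSG00000033105, chromosome 10, positions 76531588 to 76557138, plus strand). In iWAT it was at 9.13, 5.33 and 5.98 FPKM in irisin HFD libraries, against 3.58, 1.86 and 1.76 in irisin chow libraries, a log2 fold change of 1.35 ± 0.32 (adjusted p = 0.0274). iWAT of GFP mice had 4.35, 10.4 and 5.48 FPKM on HFD, against 3.64, 3.30 and 3.08 on chow (0.83 ± 0.32, adjusted p = 0.192). Every HFD library of iWAT lay above every chow library, GFP HFD 2 being the highest. In eWAT its levels were 5.95, 5.51 and 7.42 FPKM in irisin HFD libraries, against 3.24, 3.23 and 2.49 in irisin chow libraries (0.96 ± 0.19, adjusted p = 0.00877), with no overlap. Lss in eWAT of GFP mice stood at 4.32, 4.89 and 7.18 FPKM on HFD, against 3.39, 3.40 and 2.69 on chow (0.68 ± 0.19, adjusted p = 0.0223), also with no overlap. The iWAT call was lost without irisin HFD 1 (1.14), irisin HFD 3 (1.42), irisin chow 2 (1.23) or irisin chow 3 (1.20), with no filter on low values (adjusted p = 0.0577) and without the 4 libraries rich in other tissues (0.0601). The eWAT GFP call was lost without GFP HFD 3 (0.48), GFP chow 3 (0.58) or those 4 libraries (0.53). Sqle, squalene epoxidase, ranged over 2.33 to 10.2 FPKM and was highest in eWAT GFP HFD 3, the library with epididymal transcripts. Fdft1, squalene synthase, ranged over 6.13 to 13.98 FPKM, and neither was called with diet.

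The sterol ring enzymes, the largest class, held the most genes called. These were 3 of 9 in iWAT of irisin mice, 2 in iWAT of GFP mice, and 4 in eWAT with each vector. From squalene to lanosterol 1 of 3 was called in each comparison but iWAT of GFP mice, which had 0. Of the sensing and transport genes 1 of 7 was called in iWAT with each vector, 2 in eWAT of irisin mice and 3 in eWAT of GFP mice. Of the mevalonate and isoprenoid enzymes 1 of 7 tested was called in each comparison, lower in eWAT of GFP mice. Hsd17b7, a ketosteroid reductase of the demethylation steps (ENSMUSG00000026675, chromosome 1, positions 169949535 to 169969241, minus strand), was at 4.36, 3.60 and 5.79 FPKM in iWAT irisin HFD libraries, against 1.37, 1.09 and 0.929 in irisin chow libraries. iWAT GFP HFD libraries had 3.54, 6.43 and 4.36 FPKM, against 1.79, 2.29 and 1.64 in GFP chow libraries. The HFD and chow libraries did not overlap. The log2 fold changes were 1.63 ± 0.23 (adjusted p = 0.00487) in irisin mice and 1.10 ± 0.23 (adjusted p = 0.0349) in GFP mice. In eWAT Hsd17b7 stood at 4.38, 4.11 and 3.60 FPKM in irisin HFD libraries, against 1.78, 1.57 and 1.26 in irisin chow libraries (1.16 ± 0.20, adjusted p = 0.00504). It stood at 3.85, 3.51 and 5.06 FPKM in eWAT GFP HFD libraries, against 1.49, 2.61 and 2.55 in GFP chow libraries (0.79 ± 0.20, adjusted p = 0.0146). In eWAT too the HFD libraries were all above the chow libraries. The calls in irisin mice of both depots held without any single library. The iWAT GFP call was lost without any 1 of GFP HFD 2 (0.89) and 3 (1.14), GFP chow 1 (1.07), 2 (1.22) and 3 (1.03) and the irisin chow libraries (1.10 each), and also with no filter on low values (adjusted p = 0.0746). The eWAT GFP call was lost without GFP HFD 3 (0.65) and without the 4 libraries rich in other tissues, where the log2 fold change was 0.44 (adjusted p = 0.0929).

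Sc5d, the desaturase that sets a double bond in the sterol ring (ENSMUSG00000032018, chromosome 9, positions 42251595 to 42264256, minus strand), was among the most abundant. iWAT had 48.4, 43.4 and 56.6 FPKM in irisin HFD libraries, against 18.5, 13.3 and 13.4 in irisin chow libraries (1.69 ± 0.23, adjusted p = 0.00442). The GFP libraries of iWAT had 32.7, 64.6 and 52.2 FPKM on HFD, against 20.8, 23.9 and 19.9 on chow (1.14 ± 0.23, adjusted p = 0.0304). HFD and chow were apart with both vectors, and the irisin chow libraries were the lowest. Sc5d in eWAT was at 43.1, 41.9 and 39.6 FPKM in irisin HFD libraries, against 26.8, 24.3 and 20.2 in irisin chow libraries (0.80 ± 0.15, adjusted p = 0.00653), again with no overlap. eWAT of GFP mice gave 32.2, 37.2 and 33.3 FPKM on HFD, against 23.1, 31.9 and 22.7 on chow, and no call (0.41 ± 0.15, adjusted p = 0.0598). The groups there were apart by a narrow gap. The iWAT GFP call was lost without GFP HFD 2 (0.93) or 3 (1.08) or GFP chow 1 (1.12), 2 (1.22) or 3 (1.09), and with no filter on low values (adjusted p = 0.0648).

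Msmo1, the sterol C4-methyl oxidase (ENSMUSG00000031604, chromosome 8, positions 64718139 to 64733792, minus strand), was at 8.28, 6.86 and 10.8 FPKM in eWAT GFP HFD libraries, against 3.89, 3.85 and 3.59 in GFP chow libraries (1.08 ± 0.20, adjusted p = 0.00385), a call that held without any single library. eWAT irisin HFD libraries had 6.46, 4.58 and 8.19 FPKM, against 3.86, 3.39 and 3.04 in irisin chow libraries (0.79 ± 0.20, adjusted p = 0.0244). In iWAT Msmo1 was at 4.49, 3.71 and 4.63 FPKM in irisin HFD libraries, against 2.40, 2.63 and 2.09 in irisin chow libraries (0.73 ± 0.18, adjusted p = 0.0290). In each of these 3 pairs the HFD libraries were all above the chow libraries. The iWAT GFP libraries had 3.69, 5.94 and 4.72 FPKM on HFD, against 3.11, 2.75 and 2.57 on chow (0.66 ± 0.18, adjusted p = 0.0781). They were apart as well, without a call. The call in iWAT was lost without irisin HFD 1 (0.70) or 3 (0.68) or irisin chow 1 (0.74), 2 (0.80) or 3 (0.66), or with no filter on low values (adjusted p = 0.0535), and that in eWAT of irisin mice without irisin HFD 1 (0.76) or 3 (0.60) or irisin chow 2 (0.78) or 3 (0.71).

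Dhcr7, the reductase of the last step to cholesterol in one branch (ENSMUSG00000058454, chromosome 7, positions 143823145 to 143848410, plus strand), was called in eWAT. It was at 7.98, 4.67 and 9.19 FPKM in irisin HFD libraries, against 4.35, 3.59 and 3.29 in irisin chow libraries (0.83 ± 0.22, adjusted p = 0.0294). GFP libraries of eWAT had 7.59, 7.86 and 7.29 FPKM on HFD, against 4.33, 3.81 and 2.72 on chow (0.99 ± 0.22, adjusted p = 0.00919). HFD and chow were apart in both pairs, with irisin HFD 2 the lowest HFD library. In iWAT Dhcr7 was not called, at 8.05, 3.25 and 4.74 FPKM in irisin HFD libraries, against 3.20, 2.12 and 2.73 in irisin chow libraries (0.81 ± 0.30, adjusted p = 0.109). iWAT GFP HFD libraries had 4.57, 7.38 and 4.09 FPKM, against 3.94, 2.87 and 3.05 in GFP chow libraries (0.60 ± 0.30, adjusted p = 0.305). HFD and chow of iWAT barely parted with either vector. The call in eWAT of irisin mice was lost without irisin HFD 1 (0.75) or 3 (0.65) or irisin chow 2 (0.81) or 3 (0.75), with no filter on low values (adjusted p = 0.0594) and with voom on recovered reads (0.0507). Cyp51, the lanosterol demethylase, was called in eWAT of GFP mice, with 11.4, 11.7 and 17.8 FPKM on HFD, against 9.26, 9.85 and 7.004 on chow (0.60 ± 0.19, adjusted p = 0.0405), and the call was lost in 7 of the 12 fits that leave out a library: without GFP HFD 2 (0.69) or 3 (0.40), GFP chow 1 (0.65) or 3 (0.46), or irisin HFD 1, irisin chow 1 or 2 (0.60 each). It was also lost with no filter on low values (adjusted p = 0.0755), with upper quartile scaling (0.0538) and without the 4 libraries rich in other tissues (log2 fold change 0.45, limma's adjusted p = 0.14). Tm7sf2, Nsdhl, Ebp and Lbr, the other ring enzymes, were called in no diet comparison and ranged over 1.03 to 3.77, 7.002 to 36.0, 10.4 to 21.7 and 3.89 to 15.6 FPKM in that order.

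**Figure D2:**
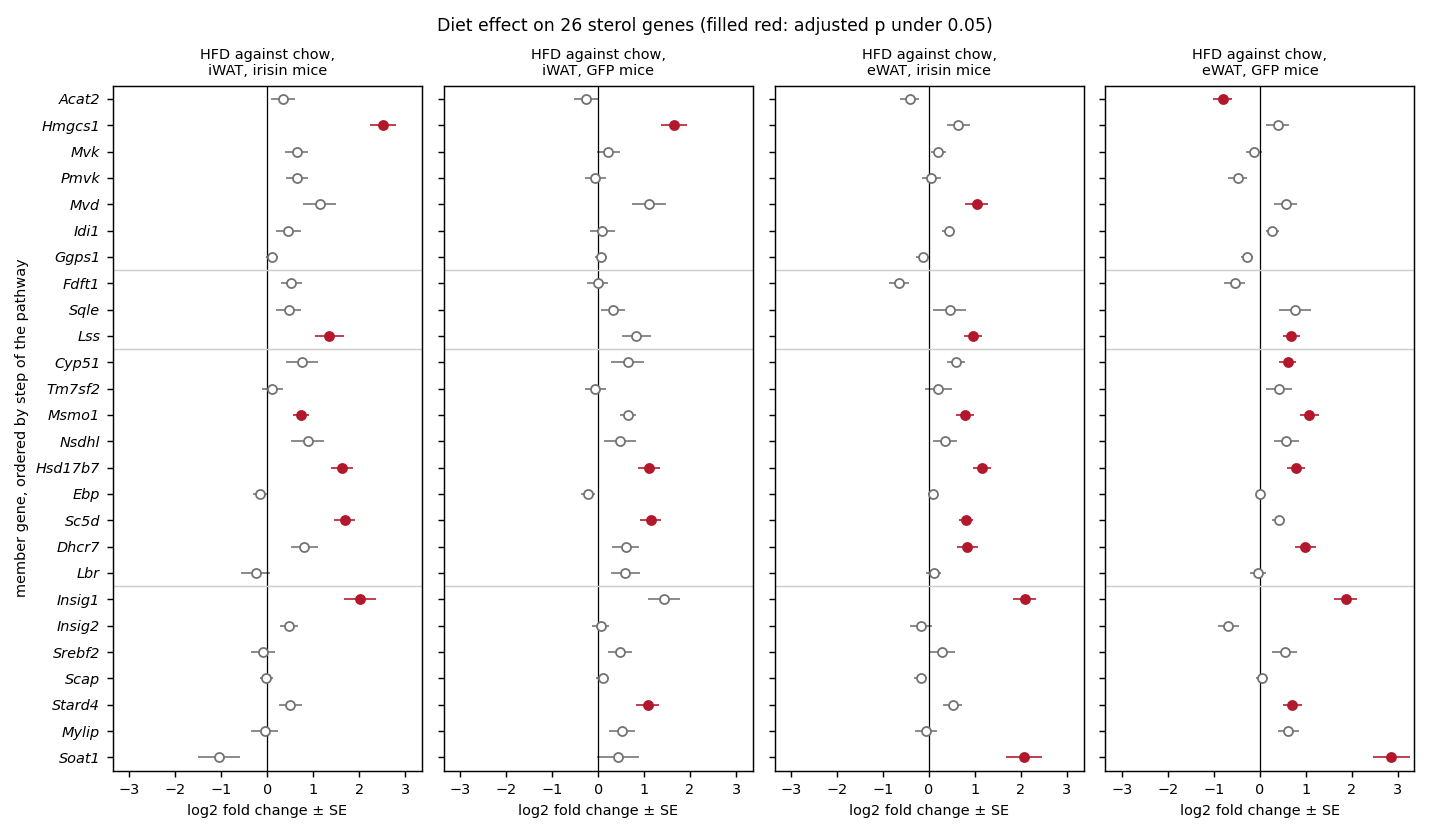
Diet effect (log2 fold change ± SE, HFD against chow, on log2(FPKM + 0.5)) of the 26 tested genes in the 4 depot and vector combinations, with genes called at an adjusted p under 0.05 filled. Hsd17b7 is filled in all 4 panels, Hmgcs1 in the iWAT panels and Soat1 in the eWAT panels.

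Insig1, the sterol sensor that both holds back SREBP2 and is made under its control, had the highest median level of the set over the 24 libraries (ENSMUSG00000045294, chromosome 5, positions 28071363 to 28078662, plus strand), though in eWAT on chow Hmgcs1, Acat2 and Pmvk had higher means. In iWAT it was at 186, 122 and 132 FPKM in irisin HFD libraries, against 47.8, 28.4 and 32.7 in irisin chow libraries (2.01 ± 0.35, adjusted p = 0.00946). GFP mice had 86.1, 264 and 135 FPKM in iWAT on HFD, against 47.7, 55.2 and 57.1 on chow, where the log2 fold change of 1.44 ± 0.35 (adjusted p = 0.0579) missed the threshold. Every HFD library of iWAT was above every chow library, and the lowest of them was again GFP HFD 1. eWAT had 124, 94.8 and 116 FPKM in irisin HFD libraries, against 34.2, 24.5 and 20.5 in irisin chow libraries (2.08 ± 0.26, adjusted p = 0.00133). In eWAT of GFP mice Insig1 was at 90.2, 96.3 and 132 FPKM on HFD, against 26.3, 41.0 and 21.3 on chow (1.86 ± 0.26, adjusted p = 0.00116). Each HFD library of eWAT lay above each chow library, and the 3 calls held without any single library.

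Insig2, the second INSIG protein, is not known as a target of SREBP2, and it was called in no comparison. It was at 20.4, 28.6 and 24.7 FPKM in iWAT irisin HFD libraries, against 15.1, 20.7 and 16.7 in irisin chow libraries, and at 15.3, 23.0 and 24.1 in GFP HFD libraries, against 19.5, 20.6 and 19.0 in GFP chow libraries. eWAT had 19.3, 32.5 and 16.3 FPKM in irisin HFD libraries, against 26.6, 24.2 and 23.5 in irisin chow libraries, and 18.6, 17.0 and 16.9 in GFP HFD libraries, against 21.5, 29.8 and 35.9 in GFP chow libraries. HFD and chow overlapped in 3 of these 4 pairs, and in eWAT of GFP mice the HFD libraries were all below the chow libraries without a call (-0.69 ± 0.24, adjusted p = 0.0525). The ratio of Insig1 to Insig2 within a library, which library scaling cannot change, was 4.27 to 9.13 in iWAT irisin HFD libraries, against 1.37 to 3.16 in irisin chow libraries. In iWAT of GFP mice it was 5.59 to 11.4 on HFD, against 2.44 to 3.01 on chow. The HFD libraries were higher in both pairs. The same ratio in eWAT was 2.91 to 7.08 in irisin HFD libraries, against 0.875 to 1.28 in irisin chow libraries. GFP mice had 4.86 to 7.83 in eWAT on HFD, against 0.593 to 1.37 on chow. HFD and chow did not overlap in any of the 4 combinations, and with 3 against 3 libraries an exact permutation p cannot go below 0.1.

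**Figure D3:**
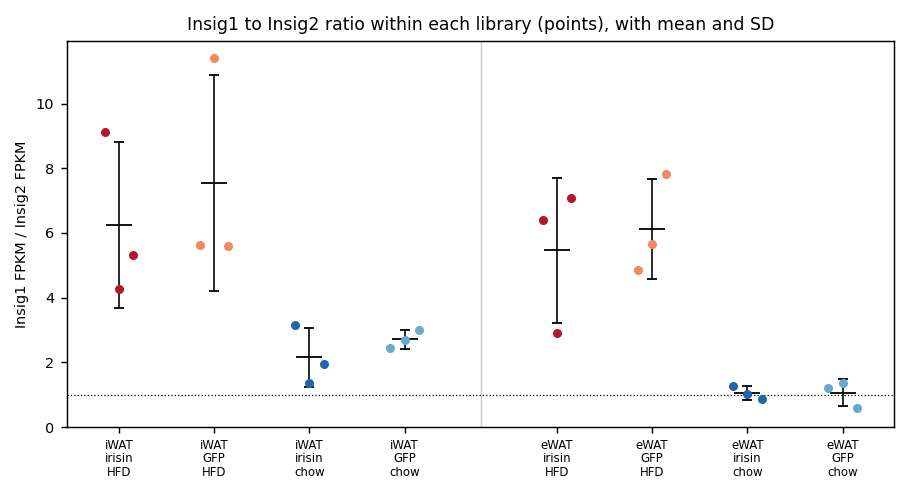
Ratio of Insig1 to Insig2 FPKM in each of the 24 libraries (points) by depot, vector and diet, with the mean and SD of each group of 3 and a dotted line at a ratio of 1. The lowest HFD library of eWAT, at 2.91, is above the highest chow library of eWAT, at 1.37.

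Srebf2, the gene for the pathway's transcription factor, was called in no comparison. iWAT had 10.3, 7.32 and 9.22 FPKM in irisin HFD libraries, against 10.4, 8.502 and 9.55 in irisin chow libraries, and 20.3, 8.93 and 9.60 in GFP HFD libraries, against 8.09, 8.61 and 8.77 in GFP chow libraries. Only the GFP groups were apart, by a narrow gap. Its log2 fold change in iWAT was -0.090 ± 0.26 (adjusted p = 0.854) in irisin mice and 0.48 ± 0.26 (adjusted p = 0.339) in GFP mice. In eWAT Srebf2 was at 11.2, 8.27 and 18.9 FPKM in irisin HFD libraries, against 9.24, 9.88 and 10.3 in irisin chow libraries, and at 16.1, 13.6 and 21.3 in GFP HFD libraries, against 14.8, 9.79 and 10.1 in GFP chow libraries. HFD and chow overlapped in eWAT with both vectors. The highest value of each depot came from a library with foreign transcripts: iWAT GFP HFD 1, and eWAT GFP HFD 3. Scap, whose protein escorts SREBP2, stayed within 6.62 to 9.82 FPKM and was called in no comparison. Mylip, a ubiquitin ligase that removes lipoprotein receptors and is induced by LXR, ranged over 8.47 to 39.4 FPKM with its highest value in iWAT GFP HFD 1, and was not called either.

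Stard4, a carrier of sterol between membranes (ENSMUSG00000024378, chromosome 18, positions 33199355 to 33213862, minus strand), was at 3.26, 3.20 and 3.95 FPKM in eWAT GFP HFD libraries, against 1.85, 2.05 and 1.90 in GFP chow libraries (0.70 ± 0.20, adjusted p = 0.0271). eWAT irisin HFD libraries had 2.95, 1.66 and 3.35 FPKM, against 1.94, 1.65 and 1.36 in irisin chow libraries (0.52 ± 0.20, adjusted p = 0.104). In iWAT it was at 3.68, 3.76 and 2.76 FPKM in GFP HFD libraries, against 1.32, 1.74 and 1.03 in GFP chow libraries (1.07 ± 0.24, adjusted p = 0.0481). Both pairs of GFP mice were apart and called, while the irisin HFD and chow libraries of eWAT overlapped. iWAT of irisin mice had 2.53, 1.61 and 3.20 FPKM on HFD, against 1.59, 1.93 and 1.14 on chow (0.50 ± 0.24, adjusted p = 0.209). The iWAT call was lost in 11 of the 12 fits that leave out a library (0.94 without GFP chow 3 to 1.21 without GFP chow 2) and kept only without irisin HFD 2, and the eWAT call was lost without any 1 of the 6 libraries compared (0.62 without GFP HFD 3 to 0.75 without GFP HFD 2). Both were also lost with no filter on low values (adjusted p = 0.103 in iWAT and 0.0594 in eWAT) and without the 4 libraries rich in other tissues (1.02 in iWAT and 0.59 in eWAT).

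Soat1, which esterifies cholesterol for storage (ENSMUSG00000026600, chromosome 1, positions 156424525 to 156474331, minus strand), gave the largest diet effect of the set in eWAT of GFP mice. It was at 26.9, 16.03 and 19.6 FPKM in GFP HFD libraries, against 2.92, 1.96 and 2.31 in GFP chow libraries (2.86 ± 0.39, adjusted p = 0.00118). eWAT irisin HFD libraries had 12.5, 4.78 and 20.1 FPKM, against 2.43, 1.94 and 2.25 in irisin chow libraries (2.06 ± 0.39, adjusted p = 0.00789). Each eWAT HFD library lay above each eWAT chow library. In iWAT Soat1 was at 1.77, 0.559 and 1.12 FPKM in irisin HFD libraries, against 2.30, 3.62 and 2.50 in irisin chow libraries, so that each HFD library lay below each chow library, without a call (-1.05 ± 0.46, adjusted p = 0.168). iWAT GFP HFD libraries had 3.93, 2.99 and 1.35 FPKM, against 2.62, 2.87 and 0.603 in GFP chow libraries (0.44 ± 0.46, adjusted p = 0.648), and the groups overlapped.

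Macrophage transcripts moved with Soat1. Of 10 macrophage markers, 7 were called higher on HFD in eWAT of irisin mice and 10 in eWAT of GFP mice, and none was at 0. Their summed level in eWAT was 919.7 to 3615 FPKM in irisin HFD libraries, against 576 to 695 in irisin chow libraries, and 3426 to 5158 in GFP HFD libraries, against 754 to 1085 in GFP chow libraries. The ratio of Soat1 to the macrophage gene Adgre1 in eWAT was 0.109 to 0.148 in irisin HFD libraries, against 0.123 to 0.152 in irisin chow libraries. GFP mice had a ratio of 0.0894 to 0.159 in eWAT on HFD, against 0.0951 to 0.145 on chow, so that both pairs overlapped. Set against Cd68, another macrophage gene, Soat1 was lower on HFD, at 0.0412 to 0.0648 in eWAT irisin HFD libraries, against 0.0687 to 0.0728 in irisin chow libraries. That ratio was 0.0385 to 0.0532 in eWAT GFP HFD libraries, against 0.0725 to 0.0921 in GFP chow libraries, and both pairs were apart. eWAT irisin HFD 2, the library low in Adgre1, was also the eWAT HFD library lowest in Soat1, at 4.78 FPKM. Of 10 adipocyte markers, 3 were called lower and 1 higher on HFD in eWAT of irisin mice, and 6 lower and 1 higher in eWAT of GFP mice. In bulk tissue, more or fewer cells of a type and more or less RNA per cell cannot be told apart, and the part of cell makeup in these effects was not tested.

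**Figure D4:**
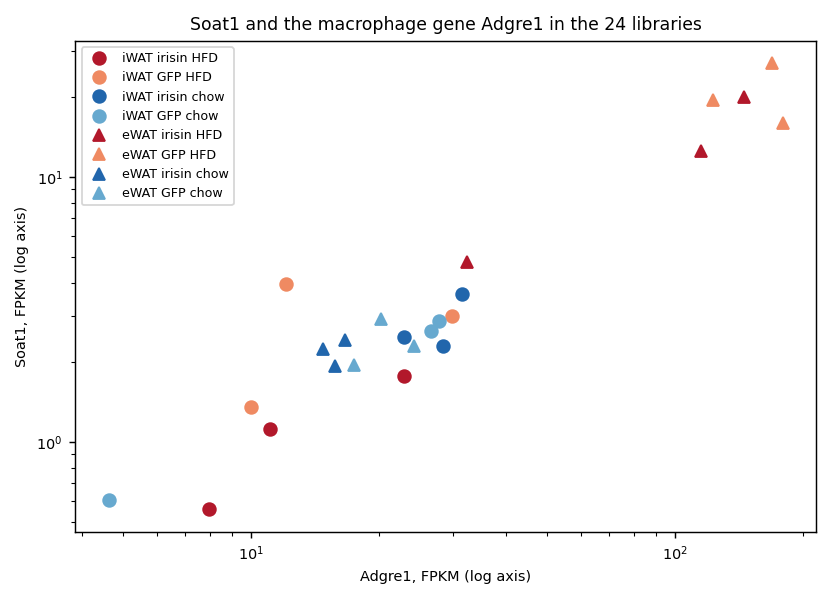
Soat1 against the macrophage gene Adgre1 in each of the 24 libraries, both in FPKM on log axes, with iWAT as circles and eWAT as triangles. The eWAT HFD libraries other than irisin HFD 2 lie apart at the upper right, with Soat1 at 12.5 FPKM or more.

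In iWAT limma called 0 of 10 macrophage markers higher on HFD with either vector, and 1 lower in irisin mice. The summed macrophage level in iWAT was 175 to 536 FPKM in irisin HFD libraries, against 858 to 1311 in irisin chow libraries, and 338 to 659 in GFP HFD libraries, against 162 to 1052 in GFP chow libraries. Hmgcs1 relative to Adipoq in iWAT was 6.48 to 7.48 percent in irisin HFD libraries, against 1.15 to 1.80 percent in irisin chow libraries. GFP mice had 6.51 to 9.39 percent in iWAT on HFD, against 1.82 to 2.35 percent on chow. The iWAT groups were apart in this ratio. In eWAT, where the level of Hmgcs1 was not called, the ratio was 4.56 to 10.1 percent in irisin HFD libraries, against 2.31 to 2.56 percent in irisin chow libraries, and 8.99 to 10.1 percent in GFP HFD libraries, against 1.41 to 3.67 percent in GFP chow libraries. The eWAT groups were apart too, but Adipoq itself had a log2 fold change of -0.96 ± 0.31 there in irisin mice, which was not called, and of -1.61 ± 0.31 in GFP mice, which was called lower. Of 10 adipocyte markers in iWAT of irisin mice, 10 had an effect above 0 and 1 was called higher on HFD, with a median of 0.46, and their summed level was 9458 to 12519 FPKM in irisin HFD libraries, against 5581 to 6848 in irisin chow libraries, with no overlap. In GFP mice 2 of 10 were above 0 and 1 was called higher, with a median of -0.28, and the sums overlapped, at 5368 to 10561 FPKM on HFD, against 7295 to 10519 on chow. The part of adipocyte transcripts in the diet effects of the cholesterol genes was not tested. 8 of the 9 tested muscle markers were called lower on HFD in iWAT of irisin mice, whose chow libraries held muscle transcripts (Ckm 4.83, 17.2 and 279 FPKM), and the part of muscle RNA in the irisin comparison was not tested.

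The diet effect differed between depots for 2 of the 26 tested genes. For Hmgcs1 in irisin mice the effect was larger in iWAT than in eWAT by 1.88 ± 0.39 (adjusted p = 0.0210) log2 units, where 1.02% of all genes tested were called in that direction. In GFP mice this difference was 1.27 ± 0.39 (adjusted p = 0.0751) and was not called. The term of irisin mice also called 7 of 9 tested muscle markers lower (median -5.805). In it 10 of 10 adipocyte markers were above 0 (median 1.10), with 1 called higher. The part of muscle and adipocyte transcripts in the Hmgcs1 difference was not tested. For Soat1 the effect was smaller in iWAT than in eWAT, by -3.11 ± 0.64 (adjusted p = 0.0205) in irisin mice and -2.43 ± 0.64 (adjusted p = 0.0360) in GFP mice, where 2.71% and 2.98% of all genes tested were called in that direction. The same terms called 8 of 10 macrophage markers lower in irisin mice (median -3.31) and 5 of 10 in GFP mice (median -2.69), and their part in the Soat1 difference was not tested. No other gene of the set was called with limma in these tests, and none was called higher in GFP mice, where 1.33% of all genes were. An unadjusted p under 0.05 was reached by 5 of 26 in irisin mice and 4 of 26 in GFP mice. The Hmgcs1 call was lost without iWAT irisin HFD 3 (1.82), iWAT irisin chow 2 (1.81), eWAT irisin HFD 3 (1.78) or eWAT irisin chow 1 (1.78). The Soat1 call in irisin mice was lost without iWAT irisin HFD 2 (-2.82) or 3 (-3.13), iWAT irisin chow 2 (-2.94), eWAT irisin HFD 1 (-3.00) or 3 (-2.67) or eWAT irisin chow 1 (-3.17), and that in GFP mice without iWAT GFP HFD 3 (-2.07), iWAT GFP chow 1 (-2.19) or 2 (-2.14), eWAT GFP HFD 1 (-2.23) or 3 (-2.46) or eWAT GFP chow 2 (-2.32) or 3 (-2.41).

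Levels in iWAT set directly against eWAT differed for few of the genes. On HFD in irisin mice, Soat1 (-2.83 ± 0.45, adjusted p = 0.00105) and Ebp, the sterol isomerase (-0.47 ± 0.12, adjusted p = 0.0162), were lower in iWAT, against 6.75% of all genes called lower. In GFP mice on HFD, Soat1 (-2.77 ± 0.45, adjusted p = 0.000442), Msmo1 (-0.79 ± 0.19, adjusted p = 0.00776) and Ebp (-0.42 ± 0.12, adjusted p = 0.0192) were lower in iWAT (background 9.68%) and Pmvk higher (0.69 ± 0.23, adjusted p = 0.0468, background 5.56%). On HFD 9 of 10 macrophage markers were called lower in iWAT with each vector (median -2.65 in irisin mice and -3.08 in GFP mice). Of 10 adipocyte markers, 5 were called higher in iWAT in irisin mice and 6 in GFP mice, and none lower. The part of cell makeup in these depot differences was not tested. On chow in irisin mice, Hmgcs1 (-1.27 ± 0.28, adjusted p = 0.00906) and Fdft1 (-0.90 ± 0.24, adjusted p = 0.0331) were lower in iWAT, against 2.4% of all genes. The same comparison called 8 of 9 tested muscle markers higher in iWAT (median 5.90). In it 2 of 10 adipocyte markers were above 0 (median -0.27), with none called. The part of these transcripts in the Hmgcs1 and Fdft1 calls was not tested. On chow in GFP mice none of the 26 was called by limma or (0 of 26) by voom on the recovered reads, while 3 had an unadjusted p under 0.05, where 1.5% of all genes were called higher and 3.13% lower. Ctsb, which overlaps Fdft1, was at 405, 382 and 364 FPKM in the iWAT irisin chow libraries, against 353, 358 and 339 in those of eWAT. The 2 Soat1 calls held without any single library. The Pmvk call was lost in 17 of 24 fits that leave out a library (lowest value 0.46, without iWAT GFP HFD 2), Msmo1 without eWAT GFP HFD 3 (-0.63), Ebp in GFP mice without iWAT GFP HFD 1 (-0.24) or eWAT GFP HFD 1 (-0.40), Ebp in irisin mice without iWAT irisin HFD 2 (-0.45) or eWAT irisin HFD 1 (-0.49) or 3 (-0.45), Hmgcs1 without iWAT irisin chow 3 (-1.15) or eWAT irisin chow 1 (-1.17), and Fdft1 without iWAT irisin chow 2 (-0.82) or 3 (-0.87) or eWAT irisin chow 1 (-0.88), 2 (-0.92) or 3 (-0.89).

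The irisin vector moved none of the 26 genes past the threshold. In iWAT on HFD limma called 0 (smallest adjusted p 0.946) and 0 had an unadjusted p under 0.05, and on chow it called 0 (smallest adjusted p 0.919) with 3 at an unadjusted p under 0.05. In eWAT on HFD it called 0 (smallest adjusted p 0.533) with 4 at an unadjusted p under 0.05, and on chow 0 (smallest adjusted p 0.939) with 1. The share of all genes called was 0% in each of these, and voom on the recovered reads also called 0 of the 26. Hmgcs1 on HFD differed between irisin and GFP mice by 0.11 ± 0.28 log2 units in iWAT and 0.32 ± 0.25 in eWAT, and Insig1 by -0.013 ± 0.35 in iWAT and 0.078 ± 0.26 in eWAT. The vector by diet interaction was called for 0 of 26 in either depot (1 and 0 at an unadjusted p under 0.05 in iWAT and eWAT), where 0% of all genes were called in iWAT and 0.00614% in eWAT.

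Some groups were apart without a call. On HFD in eWAT, 6 of the 26 genes had each irisin library above each GFP library, where this held for 6.66% of all genes tested: Acat2 (0.57 ± 0.21), Hmgcs1 (0.32 ± 0.25), Mvk (0.41 ± 0.17), Pmvk (0.50 ± 0.20), Ebp (0.18 ± 0.10) and Sc5d (0.28 ± 0.15). Soat1 was at -0.89 ± 0.39 there, with an adjusted p of 0.533 and overlapping groups. On chow in iWAT, 4 genes had each irisin library below each GFP library, against 8.12% of all genes tested: Hmgcs1 (-0.75 ± 0.28), Pmvk (-0.38 ± 0.23), Hsd17b7 (-0.56 ± 0.23) and Sc5d (-0.51 ± 0.23). In eWAT on HFD 0 of 26 were apart in the lower direction (6.76% of all genes), and in iWAT on chow 0 in the higher one (8.22%). On chow in eWAT 1 gene, Fdft1, was apart and higher (5.63%) and 0 lower (4.38%), and on HFD in iWAT 0 were apart in either direction (3.21% higher and 3.13% lower). These iWAT irisin chow libraries are those that held muscle transcripts, and there 0 of 10 adipocyte markers had an effect above 0 (median -0.33) and 10 of 10 macrophage markers did (median 0.82), none of them called. The summed adipocyte level on chow in iWAT was 5581 to 6848 FPKM in irisin libraries, against 7295 to 10519 in GFP libraries, with no overlap. In eWAT on HFD 10 of 10 adipocyte markers were above 0 (median 0.67) and 0 of 10 macrophage markers were (median -0.99), none of them called. The summed adipocyte level there was 5156 to 12173 FPKM in irisin libraries, against 4354 to 5104 in GFP libraries, with no overlap. The summed macrophage level of eWAT irisin HFD 1 (2799 FPKM) and 2 (919.7) was below that of every eWAT GFP HFD library. The part of these transcripts in the differences was not tested.

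**Figure D5:**
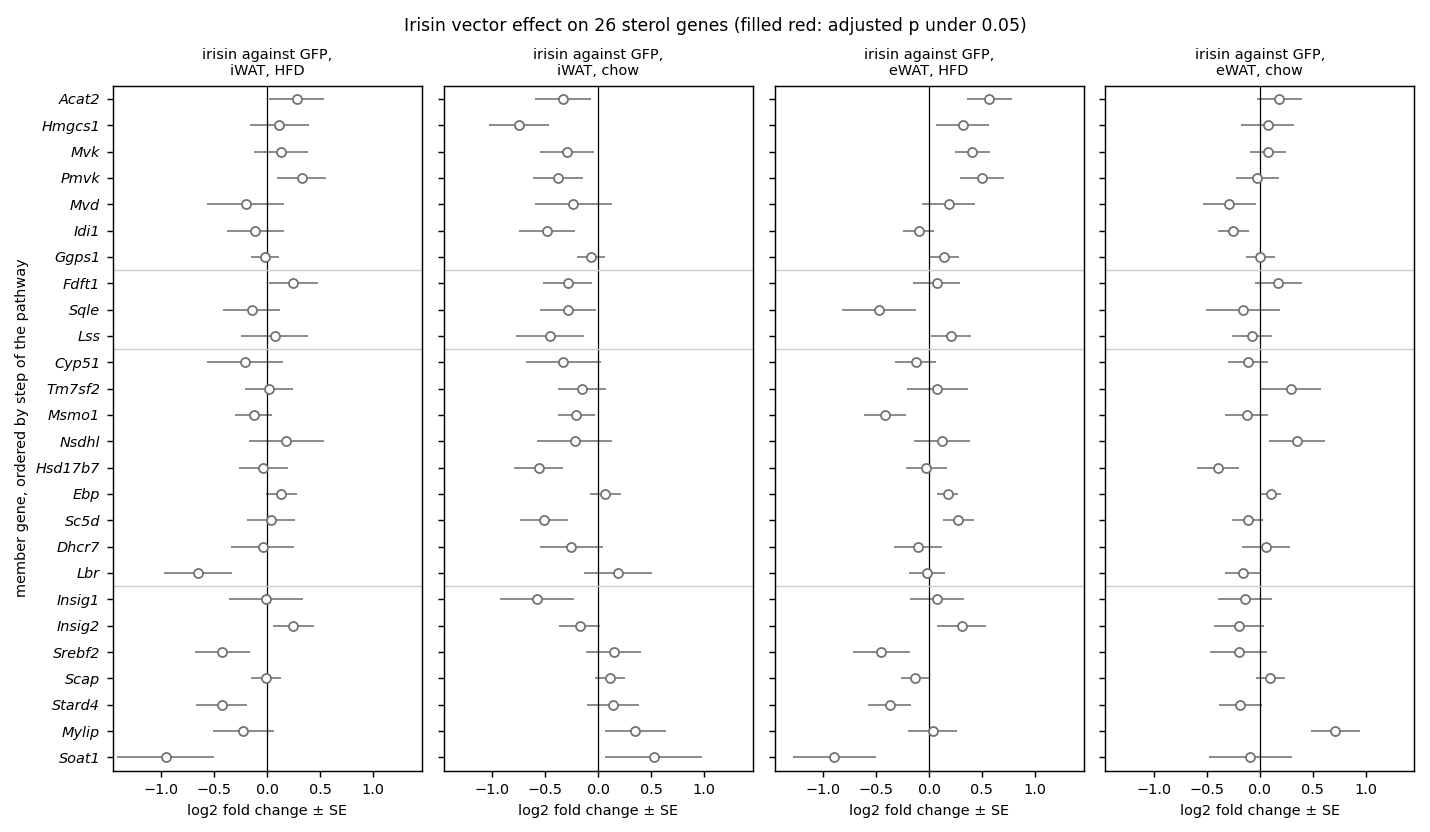
Vector effect (log2 fold change ± SE, irisin against GFP, on log2(FPKM + 0.5)) of the 26 tested genes on each diet in each depot. No symbol is filled, since none passed an adjusted p of 0.05, and the values lie between -0.96 and 0.71.

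Among 57 other genes around the pathway, in 5 lists, those for making fatty acids were mostly called lower on HFD where they were called. The list of sterol input and lipogenic targets of the SREBP factors has 16 genes, all tested, and holds no lipoprotein receptor. In iWAT 3 were lower and none higher on HFD in irisin mice, and 2 lower and none higher in GFP mice. In eWAT 5 were lower and 1 higher in irisin mice, and 7 lower and 2 higher in GFP mice. Of all genes tested, 4.19% were called lower in iWAT of irisin mice and 0.924% in iWAT of GFP mice. In eWAT 7.93% of all genes were called lower and 9.47% higher in irisin mice, and 11.8% lower and 14.7% higher in GFP mice. Acaca, acetyl-CoA carboxylase, which makes malonyl-CoA from the same acetyl-CoA that feeds the mevalonate steps, was called lower in all 4: -1.43 ± 0.29 (adjusted p = 0.0162) in iWAT of irisin mice, -1.66 ± 0.29 (adjusted p = 0.0184) in iWAT of GFP mice, -2.18 ± 0.25 (adjusted p = 0.00106) in eWAT of irisin mice and -2.32 ± 0.25 (adjusted p = 0.000568) in eWAT of GFP mice. Fads1, a fatty acid desaturase, was lower in iWAT of irisin mice (-1.38 ± 0.22, adjusted p = 0.00685) and GFP mice (-1.35 ± 0.22, adjusted p = 0.0153), and Elovl6, a fatty acid elongase, in iWAT of irisin mice (-1.35 ± 0.30, adjusted p = 0.0225). The median of the list was -0.087 in iWAT of irisin mice and -0.34 in iWAT of GFP mice, -0.44 in eWAT of irisin mice and -0.75 in eWAT of GFP mice, on the side of 0 opposite to the cholesterol genes' medians given above. Adipocyte markers had a median of 0.46 in iWAT of irisin mice and -0.28 in iWAT of GFP mice. In eWAT their median was -0.66 in irisin mice and -0.97 in GFP mice. The part of adipocyte transcripts in the effects of this list was not tested.

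The list of sterol transport and storage, with 12 of 13 genes tested, had 4 genes higher and none lower on HFD in eWAT of irisin mice, 6 higher and none lower in eWAT of GFP mice, and none called in iWAT. Of all genes tested, 9.47% were called higher in eWAT of irisin mice and 14.7% in eWAT of GFP mice. Nceh1, which frees cholesterol from its esters, was at 2.88 ± 0.45 (adjusted p = 0.00350) in eWAT of irisin mice and 3.56 ± 0.45 (adjusted p = 0.000929) in eWAT of GFP mice. Npc2, a lysosomal sterol carrier, was at 0.94 ± 0.13 (adjusted p = 0.00238) in eWAT of irisin mice. The macrophage levels given above moved with them, and their part was not tested.

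Calls in the remaining lists are set beside the share of all genes called. That share was 4.82% higher and 4.19% lower in iWAT of irisin mice, and 1.44% and 0.924% in iWAT of GFP mice. In eWAT it was 9.47% and 7.93% in irisin mice, and 14.7% and 11.8% in GFP mice. Of 10 isoprenoid genes 1 was higher in iWAT of irisin mice (Fntb, a farnesyltransferase subunit, 0.61 ± 0.16 (adjusted p = 0.0393)), none in iWAT of GFP mice, 1 higher in eWAT of irisin mice and 1 higher and 2 lower in eWAT of GFP mice. Nus1, a subunit of the dolichol synthase, was the isoprenoid gene called higher in eWAT, at 1.07 ± 0.12 (adjusted p = 0.00110) in irisin mice and 1.18 ± 0.12 (adjusted p = 0.000520) in GFP mice. Of 8 genes for SREBP processing and the degradation of sterol enzymes, 1 was called, Mbtps2, the intramembrane protease of SREBP, higher in eWAT of GFP mice (0.73 ± 0.13, adjusted p = 0.00281); it was named after its value was seen. Of the 10 genes for sterol sensing by LXR and oxysterol enzymes, 9 were tested in iWAT and 8 in eWAT. None was called in iWAT, 1 was higher in eWAT of irisin mice and 1 higher and 1 lower in eWAT of GFP mice, where Abcg1, a sterol exporter induced by LXR, was at 2.20 ± 0.28 (adjusted p = 0.000929).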

How the data were processed

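Polyadenylated RNA of 24 fat libraries in 8 groups of 3 was sequenced, per the labels' protocols. Per the submitters' processing notes, alignment used HISAT2 2.0.5 and counting featureCounts 1.5.0-p3; the deposited values are FPKM as the authors computed them from gene length. The sources used here name no build; 26 of the 27 genes and 98.3% of all genes have the position of GENCODE M21 (GRCm38), and coordinates are the table's. To read back the reads, values were multiplied by gene length and divided by the smallest such product above 0 in the library. That smallest product was taken as a single read. On this footing 100% of values came out as whole reads (tolerance 0.01), and these reads served for depth and for voom. Another 8 columns, named as group values, were not used.

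limma 3.58.1 in R 4.3.3 (trended moderation) was fitted to log2(FPKM + 0.5), per depot with 4 groups and over both depots with 8, on genes that reached 0.5 FPKM in 3 or more libraries, for 16 comparisons. Adjusted p-values are Benjamini-Hochberg values over all genes tested. The fit was tested on simulated data. Plots used Python 3.11.15 and matplotlib 3.10.9.

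The members and lists were chosen with earlier results of these data known. By rule, values per library are given for genes called in at least 2 of the 4 diet comparisons or in a vector or interaction test and for Insig1, Insig2, Srebf2 and Soat1, and ranges for the rest; up to 4 genes of other lists are named per diet comparison. Alternatives were a pseudocount of 1 or 0.1, no filter, upper quartile scaling, voom, a replicate block, leaving out the 4 libraries rich in other tissues, and leaving out each library. In no 2 groups compared directly did the deviations of all 3 same-numbered libraries correlate above 0.1, and the numbers were not taken as pairs.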

Additional observations from a re-analysis of the deposited data

Results flagged for a closer look

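Soat1 differed between depots in its diet effect in irisin mice, by -3.11 ± 0.64 log2 units (iWAT less eWAT; limma's adjusted p = 0.0205), and in GFP mice, by -2.43 ± 0.64 (adjusted p = 0.0360). In both vectors each eWAT HFD library lay above each eWAT chow library, while in iWAT no diet effect was called in either. The same terms called 8 of 10 macrophage markers lower in irisin mice (median -3.31) and 5 of 10 in GFP mice (median -2.69), whose part was not tested. Hmgcs1 differed in irisin mice by 1.88 ± 0.39 (adjusted p = 0.0210), with a larger rise in iWAT. That term also called 7 of 9 tested muscle markers lower (median -5.805), and 10 of 10 adipocyte markers were above 0 (median 1.10). The part of these markers was not tested either. The interaction term itself was tested in each case, on all 24 libraries.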

How the results depend on the processing

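Single genes were followed only in the comparisons where the main fit or an alternative run called them. None of these values changed direction, and effects that were never called were not followed. Of the values followed, 1423 kept their side of the threshold, 138 were no longer called and 69 became called. No vector or vector by diet test called any of the 26 genes under any alternative run. Without a filter on low values, 1 gene was called higher with diet in iWAT of GFP mice in place of 4, 0 in place of 1 was higher in iWAT than eWAT in GFP mice on HFD, and 1 in place of 2 lower in irisin mice on chow. The same setting ended the diet calls of Lss and Msmo1 in iWAT of irisin mice, of Cyp51 and Stard4 in eWAT of GFP mice and of Dhcr7 in eWAT of irisin mice (adjusted p 0.0535 to 0.0755). With voom 2 in place of 1 were lower with diet in eWAT of GFP mice, 1 in place of 0 in eWAT of irisin mice, and 2 in place of 1 were higher in iWAT than eWAT in GFP mice on HFD, 3 with upper quartile scaling. Without the 4 libraries rich in other tissues, 5 in place of 8 were higher and 2 lower with diet in eWAT of GFP mice, 1 lower in eWAT of irisin mice, 5 higher and 1 in place of 3 lower in iWAT against eWAT on HFD and 1 higher on chow in GFP mice. The Soat1 depot by diet call in GFP mice went to 0 under the pseudocount of 0.1, no filter, voom and without those 4 libraries. The cause of these changes was not tested. voom shifted the median of all genes to -0.17 in the diet effect of iWAT irisin mice, -0.18 in the iWAT vector by diet term and -0.12 in the depot by diet term of irisin mice.

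Leaving out each library in turn gave 4 to 8 genes higher with diet in iWAT of irisin mice and 0 to 5 in iWAT of GFP mice, with 0 without GFP HFD 2 or GFP chow 1. The counts in eWAT were 5 to 10 higher and 0 to 1 lower in irisin mice (5 without irisin HFD 1, irisin HFD 3 or irisin chow 3) and 4 to 9 higher and 0 to 3 lower in GFP mice (4 without GFP HFD 3, 5 without GFP chow 3). iWAT against eWAT gave 0 to 5 higher and 2 to 3 lower in GFP mice on HFD, 1 to 3 lower in irisin mice on HFD and 0 to 3 lower in irisin mice on chow. The depot by diet term gave 0 to 3 higher and 0 to 1 lower in irisin mice and 0 to 2 higher and 0 to 1 lower in GFP mice. Fewer libraries were fitted in each.

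Deviations of libraries of the same number in 2 groups of a depot had correlations of -0.351 to 0.325, and no group pair had all above 0.1. iWAT GFP HFD with iWAT GFP chow came close, at 0.0752, 0.184 and 0.107. Between 2 depots with 1 vector and diet the correlations were -0.17 to 0.357, again with no group pair all above 0.1. Of the 12 other group pairs, iWAT GFP HFD with eWAT GFP chow, both in the depot by diet term of GFP mice, had all 3 above 0.1 (0.596, 0.421 and 0.251), and with a replicate block Soat1 kept its call in that term (adjusted p = 0.0341). With the block, 1 in place of 4 genes was higher with diet in iWAT of GFP mice (the calls of Hsd17b7, Sc5d and Stard4 were lost, with adjusted p 0.0559 to 0.0742). Cyp51 was no longer called in eWAT of GFP mice (adjusted p = 0.0687). The block gave 2 in place of 1 higher in iWAT than eWAT in GFP mice on HFD, and 2 in place of 1 higher in the depot by diet term of irisin mice.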
